A study of Mus musculus with 42 samples.

Results

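The constitutive proteasome genes were examined here in the kidneys of mice on 2 diets across the day. They were taken as the protein-coding genes whose symbols begin with Psma, Psmb, Psmc or Psmd followed by a number, without the immunoproteasome genes Psmb8, Psmb9 and Psmb10 and without pseudogenes. Of 44 symbols of that form, 3 immunoproteasome genes and 4 pseudogenes were left out, which gave 37 of the 56691 genes listed. A mean of at least 1 FPKM (fragments scaled by transcript length and library size) was found for 35 of the 37, and these entered the tests with 13344 genes in all. Psma8, the alpha subunit form of testis, lay between 0.033 and 0.187 FPKM, and Psmb11, the beta subunit form of the thymus, lay between 0 and 0.033 FPKM. Psmc3ip has a symbol of the same form but encodes a protein of meiotic recombination, so 34 of the tested genes belong to the proteasome.

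The mice were male wild-type C57BL/6 animals, 6 weeks old at the start, kept on a light-dark cycle of 12 h each. The control group ate chow and the other group ate fat-rich food to which 3% EpSA, the fatty acid epoxide epoxystearic acid, had been added, each for 14 weeks. Collection times were given as zeitgeber time (ZT), which counts hours from the start of the light phase, and were ZT 1, 5, 9, 13, 17, 21 and 25. For every diet and time 3 mice were listed, 42 altogether. Their values were deposited as 14 means, which are called pools here. No spread between mice can therefore be given, the depth is unknown, and each p-value measures only the spread between pools. None of the 42 mice listed ate the fat-rich food without EpSA, and the effects of fat and of EpSA cannot be told apart.

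The proteasome is the barrel-shaped protease that degrades proteins tagged with ubiquitin. Its core particle stacks rings of alpha subunits, which gate the barrel, on rings of beta subunits, which cut the substrate. A regulatory particle caps the core. Its base holds a ring of ATPases that unfold the substrate, and its lid removes the ubiquitin chain. The subunits are needed in fixed proportions, and their genes are expressed in nearly every cell type. In the kidney, tubule cells reabsorb and turn over large amounts of protein.

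All 11 kidney markers examined, from the proximal tubule to the podocyte, passed the filter of 1 FPKM, with summed levels between 2000 and 2447 FPKM in every pool. The chow pool at ZT 21 stood apart from the rest. Kap, an androgen-regulated gene of the proximal tubule, took 14.45% of its FPKM, against 7.12% to 11.3% in the other 13 pools. The lowest share, 7.12%, was that of the EpSA pool at ZT 21. The chow pool at ZT 21 also had the fewest genes above 0, 27796, against 28443 to 29783 elsewhere. Of the markers of other cells, those of fat summed to 104 to 245 FPKM in chow and 56.1 to 296 FPKM in EpSA. Those of red blood cells summed to 373 to 699 FPKM and 303 to 427 FPKM. Those of the adrenal gland summed to 1.06 to 1.57 FPKM in chow and reached 95.4 FPKM in EpSA at ZT 9. Differences over the day of the proteasome genes described pool by pool are therefore given with and without ZT 21.

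The proteasome genes were expressed at moderate to high levels in both diets. Psmb5, the catalytic subunit with chymotrypsin-like activity, had the highest mean over the 14 pools, 102 FPKM, with values from 87.4 to 122 FPKM. It was followed by Psmb4, a structural beta subunit, at 86.9 FPKM, Psma6 of the alpha ring at 82.8 FPKM and the ATPase Psmc5 at 76.5 FPKM. The lowest means were those of Psmd11 of the lid at 10.6 FPKM, Psma3 of the alpha ring at 9.18 FPKM, and the assembly chaperones Psmd5 at 7.29 FPKM and Psmd9 at 3.73 FPKM. Psmd5, Psmd9 and Psmd10 help to build the base and leave it once it is complete.

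**Figure D1:**
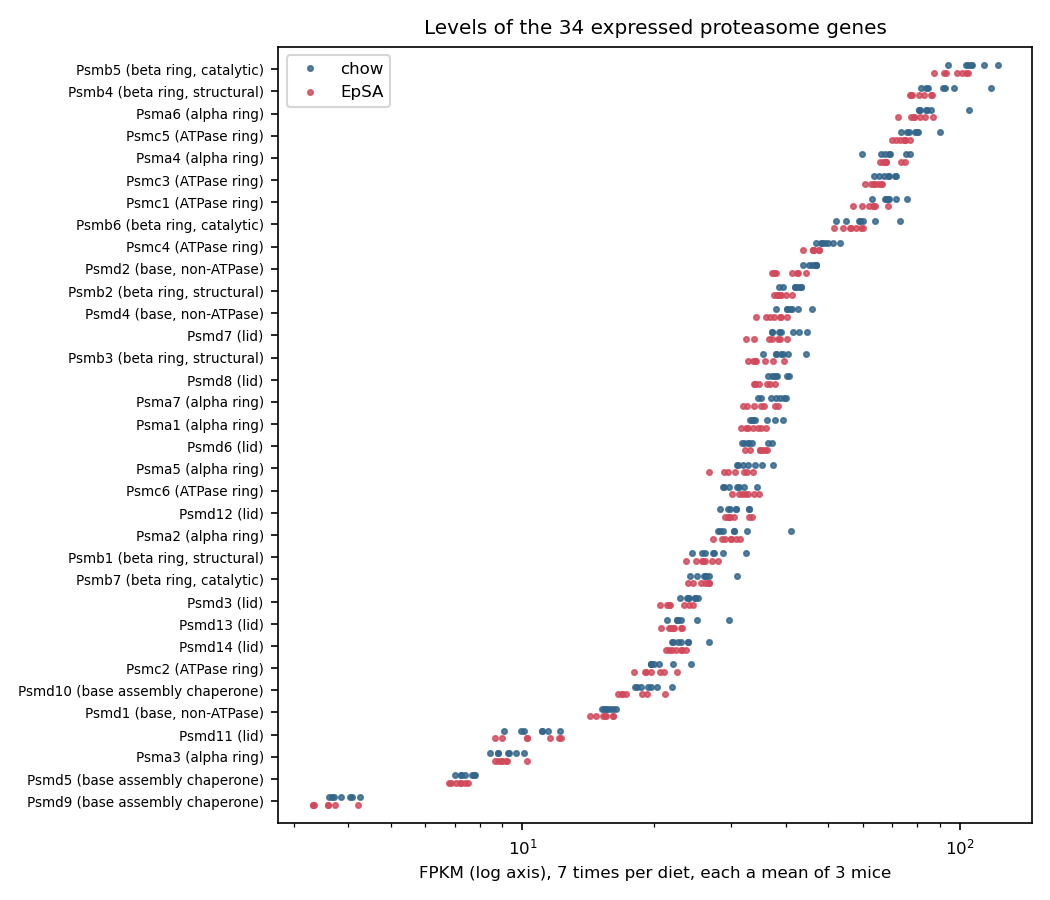
FPKM of each of the 34 expressed proteasome genes on a log axis, with 1 point per pool, blue for chow and red for EpSA, ordered by mean. Psmb5 lies at the top with a mean of 102 FPKM and Psmd9 at the bottom with 3.73 FPKM, and the points of the diets overlap for every gene.

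The ranges over the 14 pools overlapped for most neighbours in this order. Some of these neighbours still kept their order within every pool, such as Psmb5 over Psmb4 and Psma6 over Psmc5. Others did not, such as Psmb4 and Psma6. All 14 values of a gene lay above all 14 of the next lower gene in only 4 cases, namely Psmd10 over Psmd1, Psmd1 over Psmd11, Psma3 over Psmd5, and Psmd5 over Psmd9. By role, the median level was 58.4 FPKM for the 3 catalytic beta genes and 56.9 FPKM for the 6 ATPase genes. It was 39.4 FPKM for the 3 other base genes, 38.9 FPKM for the 4 structural beta genes and 34.6 FPKM for the 7 alpha genes. The 8 lid genes had a median of 27.0 FPKM and the 3 base assembly chaperones 7.29 FPKM. The alpha genes ran from 9.18 to 82.8 FPKM, a wider range than that of the role medians, while the lid genes ran from 10.6 to 38.5 FPKM, a narrower one.

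These levels varied little between pools. The coefficient of variation over the 14 pools ran from 3.65% for Psmd1 to 12.3% for Psmb4, with a median of 7.28%, against 10.7% for all genes tested. Of all genes, 21.3% varied by less than the proteasome median. This comparison was not matched for expression level. Many of the genes also tracked one another over the 14 pools, but not all did so within a diet. The correlation of a proteasome gene with the mean of the others over the 14 pools had a median of 0.75 and ran from 0.14 for Psmc6 to 0.94 for Psmd4. Without ZT 21 the median over 12 pools was 0.67, with a range from -0.005 to 0.89. Within the chow pools alone the correlation ran from -0.58 for Psmd5 to 0.99 for Psmb3. Within the EpSA pools alone it ran from 0.002 for Psmd12 to 0.93 for Psma1. Of the genes outside the set, 5.21% exceeded the set's median with all pools and 4.90% without ZT 21. The pools share libraries between genes, so these correlations are a description of the pools.

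The diets were compared with time as a factor, to ask whether proteasome expression differed between EpSA and chow over the day. None of the 35 genes passed the test (limma, Benjamini-Hochberg adjusted p under 0.05), against 0.247% of all genes tested. At an unadjusted p under 0.05 there were 8 of the 35, or 22.9%, beside 19.2% of all genes. All 8 were lower in EpSA, where 10.6% of all genes were lower at that level. Leaving out ZT 1, 5, 9 or 17 left 8, 7, 9 or 10 genes at that level, and leaving out ZT 13, 21 or 25 left 1, 4 or 2, where the share of all genes lay between 13.1% and 19.4%. The count was 3 with the medians of the columns set equal and 3 under quantile normalization, beside 19.3% and 18.6% of all genes. It was 2 after rescaling without the 10 most abundant genes, beside 17.8%, and 14 without a time term, beside 19.4%.

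The estimates lay mostly on the lower side in EpSA. They were below 0 for 31 of the 35 genes, against 53.9% of all genes, with a median log2 difference of -0.09 beside -0.01 for all genes. Without ZT 21, 29 of the 35 lay below 0, beside 58.3% of all genes, and the median was -0.06. Under quantile normalization the median over the day was -0.03. The summed level of the 35 genes averaged 1376 FPKM over the chow pools and 1286 FPKM over the EpSA pools. In bulk kidney RNA, fewer cells of a type and less RNA per cell cannot be told apart.

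The base scaffold subunit Psmd2, which receives ubiquitin-like shuttle proteins, had the lowest p of the set. Its chow pools held 46.9, 46.7, 46.9, 45.2, 43.9, 45.8 and 46.8 FPKM from ZT 1 to ZT 25. Its EpSA pools held 42.7, 44.6, 37.1, 37.6, 42.4, 37.9 and 41.2 FPKM at the same times. Chow was higher at 7 of 7 times, and the EpSA pool at ZT 5 alone reached into the chow range. The log2 difference was -0.18 ± 0.047 (SE over 14 pools) with an adjusted p of 0.10 by limma. It was -0.17 without ZT 21. The largest difference of Psmd2, -0.33, was at ZT 9, and without ZT 9 the value over the day was -0.16.

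Psmd8, a small lid subunit, came next. It was measured at 40.2, 38.05, 37.3, 37.6, 36.5, 40.8 and 38.2 FPKM in chow. In EpSA it was measured at 37.7, 36.2, 34.8, 33.9, 36.85, 33.9 and 34.1 FPKM. EpSA was lower at 6 of 7 times and the ranges overlapped, with a log2 difference of -0.11 ± 0.042 and a limma adjusted p of 0.20. Without ZT 21 it was -0.09.

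Psmd3, a scaffold subunit of the lid, had 24.003, 24.9, 22.95, 24.8, 23.9, 23.8 and 25.2 FPKM in chow. Its EpSA values were 23.4, 24.003, 21.7, 21.4, 21.8, 20.6 and 24.5 FPKM. It was lower in EpSA at 7 of 7 times, while the EpSA pools at ZT 1, 5 and 25 lay within the chow range. The log2 difference was -0.10 ± 0.039 with a limma adjusted p of 0.20, and -0.09 without ZT 21.

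Psmd4, the base subunit that binds ubiquitin chains, was the other gene lower in EpSA at every time. It had 40.9, 40.3, 40.3, 41.4, 38.0, 45.9 and 42.8 FPKM in chow. In EpSA it had 40.2, 38.9, 38.8, 36.0, 37.5, 34.2 and 36.7 FPKM. The difference was smallest at ZT 17 and largest at ZT 21, and averaged -0.14 ± 0.055 on the log2 scale with a limma adjusted p of 0.22. Without ZT 21 the average was -0.09. Of the 35 genes, 3 were lower at 7 of 7 times and 15 at 6 or more, beside 4.13% and 14.9% of all genes. No gene of the set had all pools of one diet above all pools of the other, which 0.892% of all genes had.

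The other end of the range was held by Psmc6, an ATPase of the base, with a log2 difference of 0.07 ± 0.048. It was measured at 29.6, 31.0, 32.2, 28.7, 29.0, 34.3 and 31.3 FPKM in chow. In EpSA it stood at 34.8, 32.3, 30.2, 31.7, 32.8, 33.9 and 31.2 FPKM. EpSA was higher at ZT 1, 5, 13 and 17, and the limma adjusted p was 0.46. The difference was 0.08 without ZT 21. Psmd6 and Psmd12 of the lid and Psma4 of the alpha ring were the other genes with estimates above 0, between 0.0006 and 0.04, each with a limma adjusted p of at least 0.63.

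**Figure D2:**
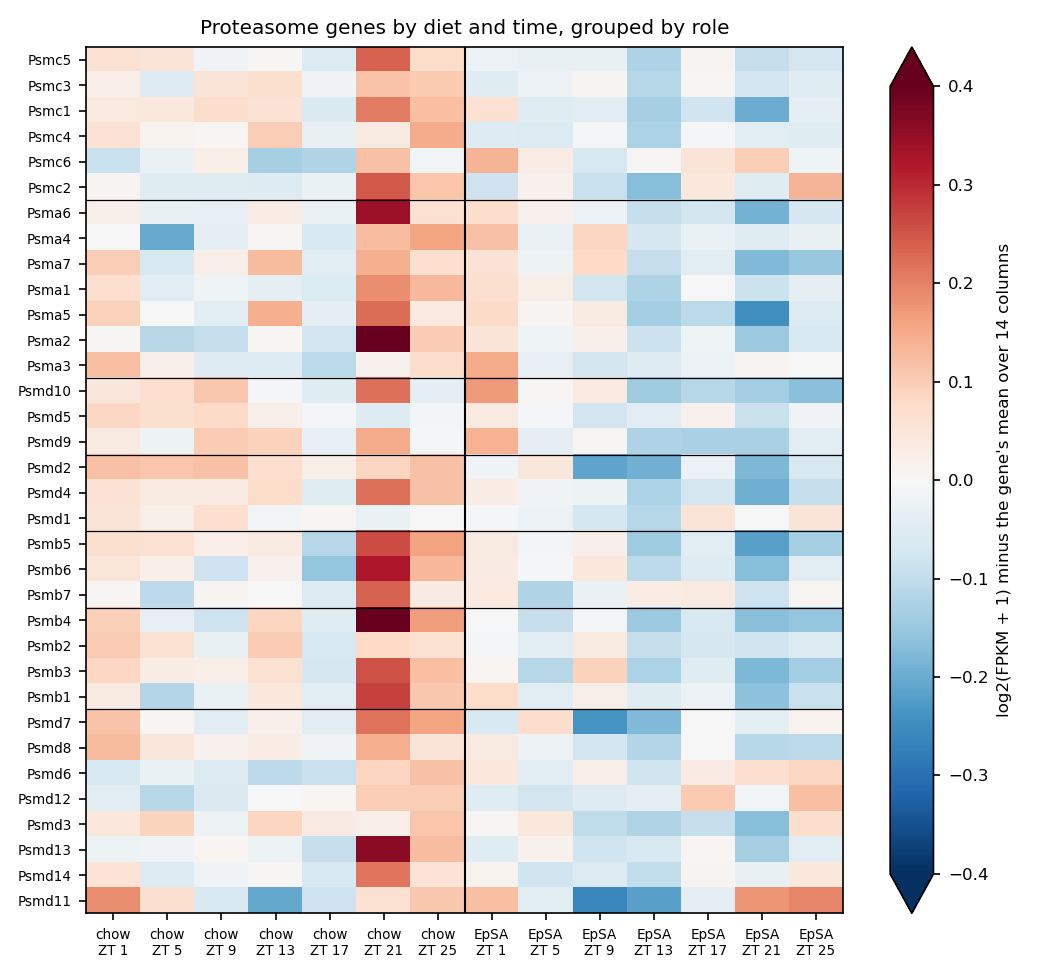
Colour gives log2(FPKM + 1) minus the gene's mean over the 14 pools, for 34 proteasome genes in rows grouped by role and the 14 pools in columns, chow left of the black line. The chow column at ZT 21 is the reddest, with 23 of the 35 tested genes highest there in chow, and colours beyond 0.4 are drawn at the end of the scale.

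By time of day, the difference between the diets was largest at ZT 21, late in the dark phase. The median log2 difference of the 35 genes was -0.03, -0.03 and -0.04 at ZT 1, 5 and 9, close to the medians of all genes, -0.03 at each. At these times 24, 21 and 23 genes were lower in EpSA, beside 56.6%, 59.3% and 56.3% of all genes. At ZT 13 it was -0.13 with 31 of the 35 genes lower in EpSA, where 62% of all genes were lower. At ZT 17 it was 0.02 with 12 lower, beside 42.2% of all genes. At ZT 21 it reached -0.27 with 33 lower, while 40.3% of all genes were lower and the median of all genes was 0.07. At ZT 25 it was -0.14 with 31 lower, beside 47.5% of all genes.

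The size at ZT 21 depended on the scaling. The median was -0.14 under quantile normalization, with all genes at 0.01. It was -0.14 after rescaling without the 10 most abundant genes, an alternative chosen after seeing the data. That rescaling put the median of all genes at 0.18, so relative to all genes the set lay at -0.32, against -0.34 in the values as deposited. Relative to all genes it lay at -0.16 under quantile normalization. It lay at -0.26 among genes averaging at least 5 FPKM, and at -0.36 with a pseudocount of 0.1.

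**Figure D3:**
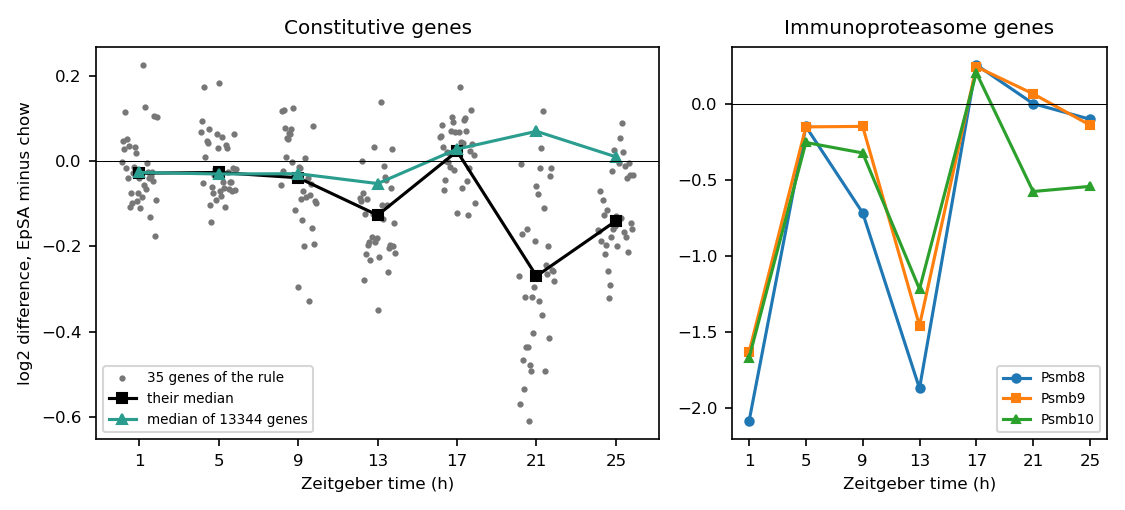
Log2 difference in EpSA minus chow at each zeitgeber time. On the left, grey points are the 35 genes, black squares their median and green triangles the median of 13344 genes. The black line lies at -0.27 at ZT 21, where the green line lies at 0.07. On the right, the 3 immunoproteasome genes lie lowest at ZT 1 and ZT 13, and Psmb10 lies at -0.58 at ZT 21.

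Both pools at ZT 21 contributed to this gap. In chow, 23 of the 35 genes had their highest value at ZT 21, beside 17.9% of all genes, and 16 their lowest at ZT 17, beside 18.5%. The chow pool at ZT 21 was above the mean of the other chow times for 30 genes, beside 36.2% of all genes, with a median of 13.1% beside -5.73% for all genes. In EpSA, 15 genes had their lowest value at ZT 21, beside 15% of all genes, and 17 their highest at ZT 1, beside 19.9%. The EpSA pool at ZT 21 was below the mean of the other EpSA times for 27 genes, beside 46% of all genes, with a median of -5.43% beside 1.07% for all genes. The 35 genes summed to 1376, 1321, 1323, 1358, 1278, 1544 and 1429 FPKM in chow. They summed to 1353, 1306, 1310, 1227, 1303, 1223 and 1280 FPKM in EpSA. The chow pool at ZT 21 was the highest of the 14 and the EpSA pool at ZT 21 the lowest.

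The 3 catalytic genes were all highest in chow at ZT 21, and differed at other times. Psmb5 had 106, 106, 104, 104, 93.9, 122 and 114 FPKM in chow. The EpSA pools had 104, 101, 103, 92.0, 98.6, 87.4 and 92.8 FPKM. The curves ran close to each other until ZT 9, and EpSA was lower at ZT 13, 21 and 25, with a log2 difference of -0.18 at ZT 13, of -0.48 at ZT 21 and of -0.14 ± 0.068 over the day (limma adjusted p of 0.29). Without ZT 21 the value over the day was -0.08.

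Psmb6, the subunit with caspase-like activity, had 60.2, 59.2, 54.9, 58.9, 52.1, 73.0 and 63.9 FPKM in chow. Its EpSA values were 59.6, 57.8, 59.9, 54.0, 56.1, 51.6 and 56.4 FPKM. At ZT 21 chow was at its highest and EpSA at its lowest, with a log2 difference of -0.49 there and of -0.09 ± 0.072 over the day (limma adjusted p of 0.53). Without ZT 21 the latter was -0.02.

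Psmb7, the subunit with trypsin-like activity, had 26.1, 24.2, 26.25, 26.0, 25.0, 30.9 and 26.7 FPKM in chow. Its EpSA pools had 26.8, 23.9, 25.6, 26.6, 26.7, 24.5 and 26.2 FPKM. Apart from ZT 21, with a log2 difference of -0.32, the diets differed by less than 0.1 at every time. Over the day the estimate was -0.03 ± 0.052 (limma adjusted p of 0.75), and it was 0.01 without ZT 21 and under quantile normalization. The direction of Psmb7 over the day was therefore not settled.

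In the alpha ring all 7 genes were lower in EpSA at ZT 21, with a median of -0.32. Psma2 had 30.4, 28.0, 28.3, 30.5, 28.7, 41.0 and 32.6 FPKM in chow. Its EpSA values were 31.4, 30.0, 30.8, 28.5, 29.9, 27.3 and 29.0 FPKM. The chow pool at ZT 21 was 37.8% above the mean of the other chow times, and EpSA was the higher diet at ZT 1, 5, 9 and 17. The difference at ZT 21 was -0.57, over the day -0.07 ± 0.080 (limma adjusted p of 0.65), and without ZT 21 0.01.

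Psma5 had 34.1, 31.9, 30.9, 35.3, 31.0, 37.4 and 32.8 FPKM in chow. In EpSA it had 33.7, 32.1, 32.7, 28.9, 29.5, 26.7 and 30.7 FPKM. It was highest in chow and lowest in EpSA at ZT 21, with a difference of -0.47 there and of -0.12 ± 0.066 over the day (limma adjusted p of 0.35). Leaving out ZT 21 gave -0.06 over the day. Psma3 did not share this course. Its values at ZT 21 were 9.29 FPKM in chow and 9.24 FPKM in EpSA.

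At ZT 21 the 3 catalytic genes had a median difference of -0.48. All 4 structural beta genes were lower in EpSA at that time with a median of -0.44, and Psmb4 had the largest difference of the whole set there, -0.61, between 118 FPKM in chow and 76.8 FPKM in EpSA. All 6 ATPase genes were lower at ZT 21, with a median of -0.24. Of the 8 lid genes 7 were lower, with a median of -0.22, and of the other base genes Psmd2 and Psmd4 were lower while Psmd1 stood at 0.03.

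Psmd14, the lid enzyme that removes ubiquitin chains, had 23.9, 22.1, 22.7, 23.0, 21.95, 26.7 and 23.85 FPKM in chow. The EpSA pools held 23.2, 21.7, 22.02, 21.3, 23.1, 22.4 and 23.6 FPKM. Its difference was -0.24 at ZT 21 and -0.06 ± 0.044 over the day (limma adjusted p of 0.51), and -0.03 without ZT 21. The chow pool at ZT 21 stood above all 13 other pools.

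The gap at ZT 21 was unequal across gene lengths. Genes were placed in 5 classes of equal number by their exon length in the annotation. Over all genes the median difference at ZT 21 ran from -0.10 in the shortest class, up to 1751 bases, through -0.04, 0.06 and 0.12, to 0.18 in the longest, from 6964 bases. The proteasome genes lay lower than their class in each case, with medians of -0.41 (6 genes), -0.26 (15), -0.32 (7), -0.20 (3) and -0.04 (3). Across 34 proteasome genes the correlation of the difference with log exon length was 0.48, and across 13076 genes it was 0.19. Markers of red blood cells summed to 585 FPKM in chow and 303 FPKM in EpSA at ZT 21. The pools at ZT 21 also had the highest share of Kap, in chow, and the lowest, in EpSA. The part of length, of blood and of these pools in the result was not tested.

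**Figure D4:**
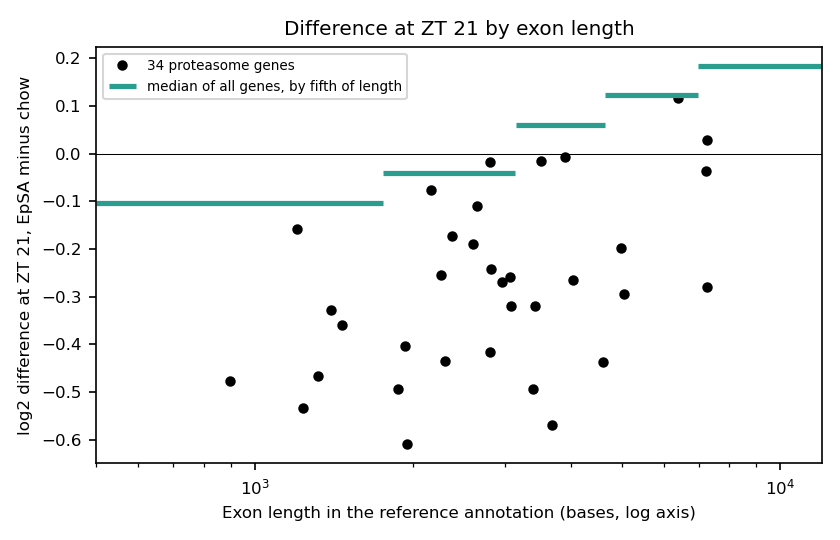
Log2 difference at ZT 21 in EpSA minus chow against exon length on a log axis. Black points are 34 proteasome genes and green bars the medians of all genes in 5 length classes. The bars run from -0.10 to 0.18, and most points lie below the bar of their class.

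Other large assemblies were set beside the proteasome at ZT 21 and over the day. For the cytosolic ribosome, protein-coding genes were taken by symbols that begin with Rpl or Rps. Symbols alone set this list, so genes other than ribosomal subunits can be in it. The 93 tested genes of the list had a median of -0.38 at ZT 21, with 79 lower in EpSA. The 8 genes of the chaperonin CCT, which folds actin and tubulin, had a median of -0.21 at ZT 21, with 8 lower. Of all genes 40.3% were lower then. Over the day the Rpl and Rps list had a median of -0.11, with 81 of 93 lower. The CCT genes had a median of -0.02 over the day, with 6 of 8 lower, beside 53.9% of all genes. A lower level in EpSA over the day was thus not particular to the proteasome. Neither list had a gene called for diet or for rhythm.

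Rhythm was tested with a 24 h cosine in each diet, to ask which genes cycled over the day. None of the 35 genes passed in chow (limma, adjusted p under 0.05), beside 0.0974% of all genes. None passed in EpSA, beside 0.045% of all genes. None passed for a difference of rhythm between the diets, beside 0% of all genes, of which 4.38% had an unadjusted p under 0.05. At an unadjusted p under 0.05 there was 1 gene of the set in each of the 3 tests, beside 10.2% of all genes in chow and 8.63% in EpSA. That gene was Psmd11 each time.

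Psmd11 is a lid subunit at chr11:80428615-80473248 on the plus strand of GRCm38. It had 12.2, 11.1, 10.1, 9.05, 9.93, 11.1 and 11.5 FPKM in chow. In EpSA it had 11.6, 10.2, 8.67, 8.97, 10.3, 12.1 and 12.25 FPKM. Both curves were highest around lights on and lowest at ZT 9 or ZT 13, and neither was highest at ZT 21. The fitted cosine had a log2 amplitude of 0.16 ± 0.036 and a peak at 1.16 h in chow, with a limma p of 0.0079 and an adjusted p of 0.31. In EpSA it had an amplitude of 0.23 ± 0.035 and a peak at 22.8 h, with a limma p of 0.00070 and an adjusted p of 0.31. The difference of the curves had a limma p of 0.042 and an adjusted p of 0.82. Over the day the diets differed by -0.02 ± 0.047, and by -0.04 without ZT 21.

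The rhythm statistic of the authors was also read for Psmd11. In the authors' deposited table for chow, its meta2d p was 4.18e-05, the rank 12 among genes with a base of at least 1, with a q of 0.14 and a phase of 0.91 h. In the authors' deposited table for EpSA, its p was 8.81e-05, the rank 13, with a q of 0.25 and a phase of 24.4 h. When the p-values of the authors' deposited table were adjusted over the genes whose base was 1 or more, Psmd11 passed in chow at 0.040 and not in EpSA at 0.091. It was 1 of 47 genes called in chow, or 0.355% of all genes, and in EpSA 2 genes were called, or 0.0149%.

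By the authors' deposited table, 4 of the 35 genes had a meta2d p under 0.05 in chow, beside 11.8% of all genes with a base of at least 1. They were Psma3, Psmc3ip, Psmd6 and Psmd11. In EpSA there were 3 by the authors' deposited table, beside 9.83%, namely Psma3, Psmc6 and Psmd11. These shares lie near those of all genes. By the JTK p-values of the authors' deposited table Psmd11 alone of the set was under 0.05 in each diet, beside 1.47% of all genes in chow and 1.11% in EpSA. By the Lomb-Scargle p-values of the authors' deposited table the count over all genes under 0.05 was 0 in each diet, so that statistic says nothing about the set.

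Psma3, the alpha subunit named beside Psmd11 in both diets, had 10.1, 9.31, 8.81, 8.80, 8.43, 9.29 and 9.68 FPKM in chow. The EpSA pools had 10.3, 8.94, 8.66, 8.80, 8.99, 9.24 and 9.18 FPKM. Both diets were highest at ZT 1 and the log2 difference over the day was -0.01 ± 0.036, and -0.01 without ZT 21. The cosine had limma adjusted p-values of 0.57 in chow and 0.71 in EpSA.

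Psmc3ip, the meiotic gene, was at 1.80, 1.60, 1.87, 2.27, 2.18, 1.98 and 1.86 FPKM in chow. In EpSA it was at 1.72, 1.95, 1.34, 1.57, 1.93, 1.86 and 1.62 FPKM. It was highest at ZT 13 in chow, apart from the proteasome genes, with a limma adjusted p of 0.49 for rhythm in chow and of 0.37 for diet. Its difference between the diets was -0.12, and -0.13 without ZT 21.

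**Figure D5:**
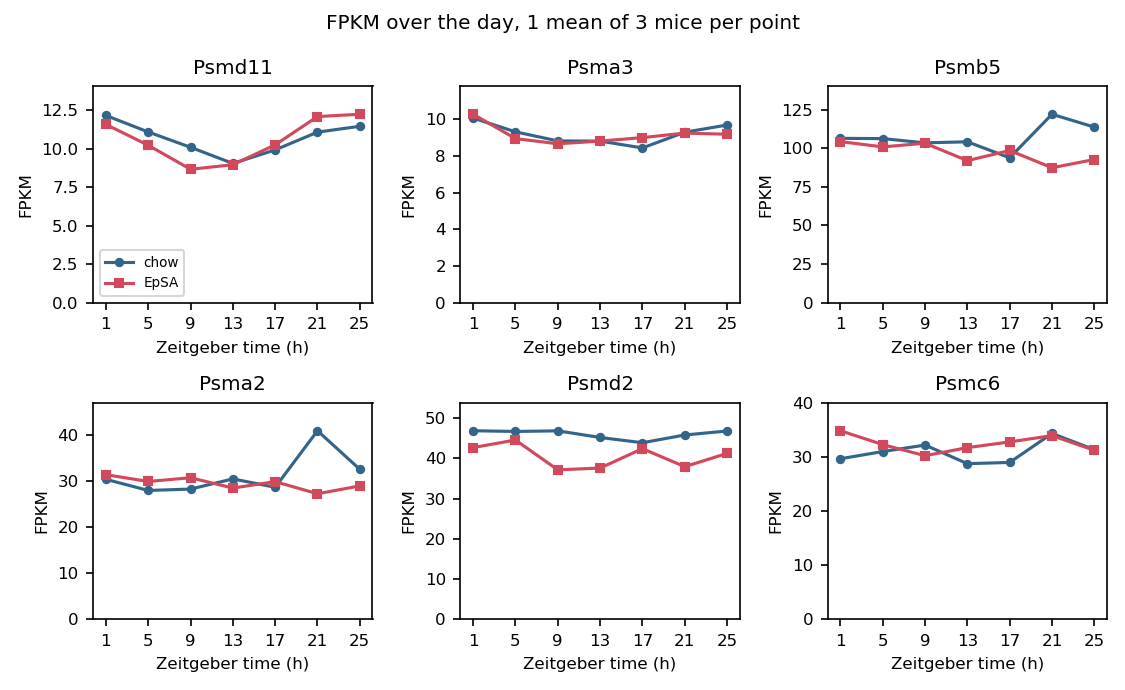
FPKM over zeitgeber time for 6 genes, each axis starting at 0, blue circles for chow and red squares for EpSA, each point a mean of 3 mice. Psmd11 has its lowest values at ZT 9 or ZT 13 in both diets, Psmb5 and Psma2 peak in chow at ZT 21 at 122 and 41.0 FPKM, and Psmd2 is lower in EpSA at all 7 times.

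The immunoproteasome took a different course at ZT 1 and ZT 13. Psmb8, Psmb9 and Psmb10 are induced by interferon and replace Psmb5, Psmb6 and Psmb7 in the core. Psmb8 had 19.4, 6.51, 7.90, 18.9, 4.01, 4.47 and 4.33 FPKM in chow. In EpSA it lay between 3.81 and 5.77 FPKM. It was thus high in the chow pools at ZT 1 and ZT 13, where it reached 18.2% and 18.1% of the level of Psmb5, against 3.65% to 7.63% in the other 12 pools. Psmb9 reached 7.08 and 7.16 FPKM and Psmb10 22.6 and 16.4 FPKM in these same chow pools. At ZT 21 Psmb10 had a log2 difference of -0.58, between 10.6 FPKM in chow and 6.79 FPKM in EpSA. Psmb8 and Psmb9 stood at 0.002 and 0.07 at that time. The log2 differences over the day were -0.67 ± 0.30 for Psmb8, -0.46 ± 0.24 for Psmb9 and -0.63 ± 0.20 for Psmb10, with limma adjusted p-values of 0.27, 0.33 and 0.16.

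The summed level of the interferon response markers was highest in the same pools. All 12 interferon response markers were lower in EpSA at ZT 1 and at ZT 13, with medians of -1.60 and -1.43. Their summed level was 2170 and 2199 FPKM in chow at these times, 624.5 to 1336 FPKM in the other chow pools and 629 to 840 FPKM in EpSA. B2m alone held 1254 and 1223 FPKM of the chow sums at ZT 1 and ZT 13. Irf7, Ifit1 and Isg15 were each lower in chow at ZT 13 than in EpSA at ZT 17. At ZT 17 and ZT 21 the list went the other way, with 0 and 1 of the 12 lower in EpSA and medians of 0.40 and 0.49. Of 9 immune cell markers 6 passed the filter, with summed levels of 164 to 912.5 FPKM in chow and 166 to 219 FPKM in EpSA. Cd74, the invariant chain of MHC class II, made up most of the chow sum at ZT 1 and ZT 13, with 604 and 796 FPKM. The other 5, the complement genes C1qa, C1qb and C1qc, the lysozyme gene Lyz2 and the leukocyte gene Ptprc, were highest in chow at ZT 1 and higher at ZT 5 than at ZT 13. The part of these markers in the levels of the immunoproteasome was not tested. The constitutive genes had median differences of -0.03 at ZT 1 and -0.13 at ZT 13.

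Caps and assembly factors were read next. None of the 5 genes of the alternative caps and the inhibitor passed the diet test. Psme1 and Psme2, the interferon-induced PA28 subunits, had log2 differences of -0.25 ± 0.10 and -0.29 ± 0.11, with the high chow pools again at ZT 1 and ZT 13. Psme3, the nuclear PA28, stood at 0.004, Psme4, the PA200 activator, at -0.01 and the inhibitor Psmf1 at -0.01. Without ZT 21 these 3 stood at -0.0003, -0.03 and -0.04.

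The 5 chaperones of core assembly were all lower in EpSA at ZT 21, with a median of -0.49, and none was called over the day. Pomp, which matures the beta ring, had 21.4, 18.1, 17.7, 20.7, 16.9, 23.1 and 19.7 FPKM in chow. In EpSA it lay between 16.2 and 18.15 FPKM, lower than chow at 7 of 7 times, with a log2 difference of -0.19 ± 0.062 and a limma adjusted p of 0.17. Psmg4 was also lower at 7 of 7 times, by -0.30 ± 0.081 with a limma adjusted p of 0.12. Psmg1, Psmg2 and Psmg3 had differences of -0.06, -0.09 and -0.11, and of 0.01, -0.02 and -0.08 without ZT 21.

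Of 7 factors that associate with the proteasome none was called. Adrm1, a ubiquitin receptor, had a log2 difference of -0.17 ± 0.057, Sem1, a small lid protein, of -0.17 ± 0.11 (-0.06 without ZT 21), the ligase Ube3c of -0.10 ± 0.059 and the deubiquitinase Usp14 of 0.06 ± 0.040. Of 6 genes of ubiquitin and its activation none was called, with Ubb at -0.12, Uba1 at -0.07 and Uba6 at -0.01. Of 8 genes of ubiquitin shuttles and the Vcp segregase none was called. All 8 estimates lay below 0, among them Nploc4 at -0.14, Ubqln2 at -0.06 and Vcp at -0.05.

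The regulators of proteasome genes were tested beside them. Nfe2l1 encodes the factor NRF1, which raises proteasome gene transcription when proteasome activity is short, and Ddi2 and Ngly1 process it. None of these passed the diet test. Nfe2l1 had a log2 difference of -0.12 ± 0.059, Ddi2 of 0.11 ± 0.064 and Ngly1 of 0.01 ± 0.049. Nfe2l2, which encodes the oxidative stress factor NRF2, had 30.55, 28.5, 28.9, 25.2, 27.1, 25.4 and 23.95 FPKM in chow. Its EpSA pools had 34.1, 28.6, 28.2, 28.5, 34.7, 35.2 and 30.8 FPKM. EpSA was higher at 6 of 7 times, with a log2 difference of 0.21 ± 0.065 and a limma adjusted p of 0.15. Of 6 tested targets of NRF2 outside the proteasome none was called, and 5 estimates lay below 0.

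Both factors bind antioxidant response elements (ARE), which are known from proteasome promoters. RefSeq windows from 250 bases before to 50 bases after the start were held for 28 of the 34 proteasome genes, in 30 windows. The ARE core, searched as TGACNNNGC on both strands, was found in 5 of the 30, or 16.7%, beside 12.4% of 32851 windows of all genes. The genes were Psmb5, Psmb6, Psmc6, Psmd12 and Psmd9. CCAAT was found in 11 windows, or 36.7%, beside 37.4%. The clock's E-box CACGTG was found in 2, those of Psma4 and Psmd9, or 6.67% beside 7.15%, and the D-box TTATGNAA in none, beside 3.38%. These shares lie near those of all windows.

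Shown are the stretches before the start of 2 catalytic genes with the ARE core in capitals, and of Psmd11, whose window held none of the 4 motifs and is all in lower case. They are from GRCm38.p6, 5′ to 3′ on the gene's strand, and end at or before the gene's first annotated base. They lie at chr14:54618023-54618245 on the minus strand for Psmb5, and on the plus strand at chr11:70525107-70525356 for Psmb6 and at chr11:80428365-80428614 for Psmd11.
Psmb5: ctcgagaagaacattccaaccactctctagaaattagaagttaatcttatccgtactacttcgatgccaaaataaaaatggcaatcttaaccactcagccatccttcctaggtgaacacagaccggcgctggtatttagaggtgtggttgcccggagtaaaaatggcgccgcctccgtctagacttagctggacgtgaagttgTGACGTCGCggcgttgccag
Psmb6: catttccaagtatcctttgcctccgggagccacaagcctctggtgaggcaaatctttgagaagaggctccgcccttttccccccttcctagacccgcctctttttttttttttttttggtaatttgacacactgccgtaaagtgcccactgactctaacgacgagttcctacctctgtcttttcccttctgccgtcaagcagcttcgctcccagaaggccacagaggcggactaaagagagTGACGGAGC
Psmd11: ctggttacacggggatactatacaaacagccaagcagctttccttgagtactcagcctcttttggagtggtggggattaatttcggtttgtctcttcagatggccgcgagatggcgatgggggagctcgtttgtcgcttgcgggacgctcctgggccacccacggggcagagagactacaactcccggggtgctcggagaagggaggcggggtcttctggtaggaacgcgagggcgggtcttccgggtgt
The ARE core reads TGACGTCGC in Psmb5, with its first base 47 before the RefSeq start, and TGACGGAGC in Psmb6, with its first base 9 before it. At ZT 21 the log2 differences of the 5 genes with the core were -0.48 for Psmb5, -0.49 for Psmb6, -0.28 for Psmd9, -0.11 for Psmd12 and -0.02 for Psmc6, with a median of -0.28. The 23 genes whose windows held no core had a median of -0.29 and ran from -0.61 for Psmb4 to 0.12 for Psmd11.

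Reads could be shared with other genes for some of the set. In the annotation 17 of the 35 genes overlap another gene, among them Psma2, Psma3, Psma5, Psmb5, Psmb7, Psmc3ip, Psmd3 and Psmd14. Whether counting used strand, and how pseudogene copies were treated, is not given in the sources used here.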

How the data were processed

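The members and lists were chosen with earlier results of these data known. The authors deposited 2 tables of 56691 genes, with 7 columns per diet. The table headed by another abbreviation than EpSA was matched by the file name that the EpSA samples give. The deposited values are read as FPKM, although no header names their unit, and as the authors' means of 3 mice, since the thousandths digit is 0, 3 or 7 in 100% of values. Per the file headers, the tables hold p-values and q-values of meta2d, JTK and Lomb-Scargle, a phase in hours, a baseline signal on the scale of the deposited values and the ratio of amplitude to it. Aligner, build and annotation are not given in the sources used here. Coordinates and exon lengths are from GENCODE M21 (GRCm38). Promoters are from RefSeq (GRCm38.p6).

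Values were taken as log2(FPKM + 1), a scale that understates the changes of low genes, and genes averaging below 1 FPKM were dropped. Tests used limma (version 3.58.1, R version 4.3.3) with a variance trend and robust moderation. Diet was tested with a term for each time. Rhythm was a 24 h cosine and sine, and its difference their interaction with diet. Benjamini-Hochberg adjustment ran over 13344 genes, with a threshold of 0.05. The models were tested on simulated data.

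The text gives the catalytic genes, Psmd11, Psmd4, Psmd14, the 3 lowest p of each model and the highest and lowest log2 difference in every pool. Of other lists it names every gene of lists of up to 5 and otherwise the 4 lowest p for diet. A few of the genes so chosen are not reported here. Psmb4, Psma6, Psmd6 and others at the ends of a range were named after their values were seen. Other pseudocounts, filters, scalings, moderation, time terms and rhythm statistics were tried, and each time was left out in turn. Summaries and plots were made in Python 3.11.15 with pandas 2.3.3 and matplotlib 3.10.9.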

Additional observations from a re-analysis of the deposited data

Results flagged for a closer look

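In 11 of 106 series of 7 values examined, 1 pool stood far from the others by Dixon's gap test. Chance flags about 1 in 20 series when they are independent. These series share pools, and the series of differences are built from the chow and EpSA values. The number of flags therefore cannot be set against that rate. The chow pool at ZT 21 was the one apart in 6 of them. There Psma2 stood at 41.01 FPKM, Psma6 at 104.9 FPKM, Psmb4 at 117.8 FPKM, Psmb7 at 30.88 FPKM, Psmc5 at 90 FPKM and Psmd14 at 26.73 FPKM, each above the other 6 chow pools. For Psma2, Psma6 and Psmb7 the log2 difference in EpSA minus chow at ZT 21 also stood apart from the other times, at -0.5704, -0.5336 and -0.3194. In EpSA, Psma3 stood apart at ZT 1 with 10.27 FPKM, above the other times, and Psmc4 at ZT 13 with 43.82 FPKM, below them. The same chow pool had the highest share of Kap, 14.45% of FPKM, and the EpSA pool at ZT 21 the lowest, 7.12%. The part of these pools in the values above was not tested.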

How the results depend on the processing

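No paired analysis was possible because the deposited columns are means that carry no replicate numbers. No gene of the set was called for diet, for rhythm in EpSA or for a difference of rhythm under any alternative run, single times left out included (0 to 0). For rhythm in chow the count was 1 (Psmd11) when the deposited meta2d p-values were adjusted over the genes whose base was 1 or more, and 0 to 0 with single times left out. The lowest adjusted p for diet by limma was 0.058 without a time term, where 156 genes in all were called. Counts of the deposited statistic under 0.05 went from 4 to 1 with JTK and 0 with Lomb-Scargle in chow, and from 3 to 1 and 0 in EpSA. The median difference over the day was -0.1051 to -0.05693 with single times left out, the latter without ZT 21. The median at ZT 21 was -0.1445 under quantile normalization and -0.1363 after rescaling without the 10 most abundant genes. Differences over the day that changed sign, none of them called, were Psmb7 at 0.0125 under quantile normalization, 0.007212 after rescaling and 0.01319 without ZT 21. Psmd11 changed to 0.0006432, 0.01987 and, without ZT 9, 0.01039. Psma3 changed to 0.01682, 0.03302 and, without ZT 5 or ZT 25, 0.001913 or 0.004795. Psma2 changed to 0.009463 without ZT 21. With single times left out the ranges were -0.05532 to 0.01319 for Psmb7, -0.04213 to 0.01039 for Psmd11, -0.02075 to 0.004795 for Psma3 and -0.1051 to 0.009463 for Psma2. Under the alternatives that can change a gene's estimate, 143 of 154 values of named genes kept their direction. Filters, the time term and the moderation leave the estimate as it is. The rescaling and limma without the variance trend were chosen after seeing the data. With no values per mouse and no depth, differences smaller than the spread between times could not be resolved.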
